A study of Mus musculus with 8 samples.

Results

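The expression of 32 genes of glycolysis, pyruvate metabolism and the hypoxia response was read in cardiac fibroblasts with and without the *Lmna* gene. The genes were chosen by name, and all 32 were among the 18957 genes listed in the count files. The 4 WT and 4 *Pdgfra-Cre:LmnaF/F* libraries, 1 mouse each, were made from mice of strain C57BL/6 (mixed) aged 3 to 4 weeks. *Lmna* encodes the nuclear lamina proteins lamin A and lamin C. The WT mice were littermates with wild-type alleles alone. The *Pdgfra-Cre:LmnaF/F* mice carried *Lmna* alleles with floxed exon 2 and a *Pdgfra-Cre* BAC transgene, which deletes *Lmna* where the *Pdgfra* promoter is or was active. Libraries from mice with the transgene and no floxed allele were not analysed here, so the effect of the transgene and that of the deletion cannot be told apart. The transgene is active in fibroblasts, and the study also describes loss of the LMNA protein in a minority of cardiac myocytes and its presence in some PDGFRA-positive cells of these mice. RNA came from ventricular cells sorted by FACS as living, hematopoietic lineage-negative and PDGFRA-positive.

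Glycolysis splits glucose into pyruvate in the cytosol, and pyruvate is then either reduced to lactate or oxidized in mitochondria. The pyruvate dehydrogenase complex commits pyruvate to oxidation, and the pyruvate dehydrogenase kinases (PDKs) switch the complex off. The transcription factor HIF1A, which the EGLN prolyl hydroxylases mark for destruction when oxygen is plentiful, induces many of the genes of glycolysis. Fibroblasts of the heart commonly use glycolysis, whereas cardiac myocytes depend mainly on oxidation and express isoenzymes such as PFKM and LDHB and the kinase PDK4.

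The promoter sequence of *Ldha*, which encodes the lactate dehydrogenase subunit that favours lactate, is shown because it held more copies of the core letters of the HIF binding motif than any other promoter of these genes. The promoters of *Pdk4* and *Pfkfb3* are shown because these genes had the largest differences between the genotypes. Sequences are from RefSeq on GRCm38.p6 and are written 5′ to 3′ along the gene's strand, with each match to ACGTG or GCGTG on either strand in capitals. A palindromic CACGTG counts as a match on each strand. Each window covers the 250 bases before an annotated start, and matches were counted over all of them, UTR bases included. The sequences shown end before the first UTR base of GENCODE release 21. The *Ldha* sequence, chr7:46845554-46845803 on the plus strand, lies in intronic sequence of longer *Ldha* transcripts. The *Pfkfb3* sequence, chr2:11502102-11502340 on the minus strand, is likewise intronic to longer transcripts, and the *Pdk4* sequence, chr6:5496310-5496528 on the minus strand, lies upstream of the gene.
Ldha: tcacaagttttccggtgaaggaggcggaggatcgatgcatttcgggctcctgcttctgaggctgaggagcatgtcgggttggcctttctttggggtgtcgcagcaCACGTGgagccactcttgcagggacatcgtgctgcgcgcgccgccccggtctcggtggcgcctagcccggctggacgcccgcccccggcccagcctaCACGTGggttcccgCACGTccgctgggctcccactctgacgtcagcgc
Pdk4: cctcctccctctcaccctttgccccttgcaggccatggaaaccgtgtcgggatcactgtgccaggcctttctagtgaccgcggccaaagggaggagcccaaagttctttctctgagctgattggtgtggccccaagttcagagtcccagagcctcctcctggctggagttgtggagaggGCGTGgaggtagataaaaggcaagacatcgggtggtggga
Pfkfb3: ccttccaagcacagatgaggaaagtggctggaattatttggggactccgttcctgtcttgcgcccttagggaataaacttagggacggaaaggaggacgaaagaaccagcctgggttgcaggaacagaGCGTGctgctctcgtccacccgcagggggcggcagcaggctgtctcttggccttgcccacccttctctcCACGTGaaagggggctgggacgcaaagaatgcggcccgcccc
The *Ldha* window shown held 5 matches to ACGTG, the *Pfkfb3* window 2 and the *Pdk4* window 0, with 1 match to GCGTG in each of the windows of *Pfkfb3* and *Pdk4*. *Ldha* and *Pfkfb3* have a further start each, and of the windows of a gene the one with more ACGTG is shown. The window not shown held 0 ACGTG and 1 GCGTG for *Ldha* and 1 ACGTG and 0 GCGTG for *Pfkfb3*. ACGTG occurred in at least 1 window of 18 of the 32 genes (56.2%), against 24.9% of the 10197 tested genes with a promoter in the table and 18.5% of all genes in it. By window the shares were 45.8% of 48 for these genes, 21.2% for the tested genes and 16.6% for all promoters. With GCGTG counted as well, the shares by window were 81.2%, 54.7% and 38.6%. A match of letters is a description of the sequence and not a binding site.

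The libraries held 2080555 to 12502949 counts, with WT replicate 2 as the shallowest. Counts are given as CPM, counts scaled to a common library size with TMM factors, and values per library are listed in the order of replicates 1 to 4. *Lmna* was lower in the *Pdgfra-Cre:LmnaF/F* libraries by 1.72 on the log2 scale (SE 0.22, edgeR adjusted p = 0.00492). The 10 fibroblast markers summed to 83032 to 100592 CPM over the 8 libraries, and all 10 were present in each. WT replicate 3 lay apart from the other libraries on the first principal component of the most variable genes, with a score of -50.5 where the others lay between -15.2 and 27.2, and it was the highest of the 8 libraries for 7 of the 32 genes and the lowest for 4. *Pdgfra-Cre:LmnaF/F* replicate 4 stood apart in its marker genes. Its 10 cardiac myocyte markers summed to 3234 CPM, against 200.1 to 416 CPM in the other 3 *Pdgfra-Cre:LmnaF/F* libraries and 276 to 662 CPM in the WT, and *Nppa* was at 0 in at least 4 libraries. Its 8 leukocyte markers summed to 424 CPM, against 42.8 to 172 CPM in the other 7 libraries, and *Cd3e*, *Cd79a* and *S100a8* were at 0 in at least 4 libraries. Its endothelial markers summed to 446 CPM, against up to 416 CPM in the other libraries. Its pericyte and smooth muscle markers summed to 811 CPM, against up to 783 CPM. Its erythroid, Schwann and adipocyte markers did not have the highest sums of the 8 libraries. A list of 22 tissue dissociation genes summed to 2959 to 6487 CPM in the WT and to 8849 to 14024 CPM in the *Pdgfra-Cre:LmnaF/F* libraries. Of this list, 3 genes were called by edgeR, all higher, where 22 of the 13036 tested genes were called higher. In the higher direction 15 of the list had an unadjusted p under 0.05, where 6.24% of the tested genes did. The 8 proliferation genes summed to 287 CPM in WT replicate 2 and 101 CPM in WT replicate 3, against 8.24 to 24.2 CPM elsewhere. Y-linked counts above 10 CPM, the level taken as their presence, were found in 3 of 4 WT and 1 of 4 *Pdgfra-Cre:LmnaF/F* libraries. Below that level were WT replicate 3 with 0.315 CPM and *Pdgfra-Cre:LmnaF/F* replicates 1 to 3 with 0.212, 0.753 and 2.05 CPM. The part of these differences in the results below was not tested, and in bulk RNA fewer cells of a type and less RNA per cell cannot be told apart.

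In the main edgeR fit, the deletion of *Lmna* was accompanied by no call among the glycolysis and hypoxia genes. Of the 32 genes, 31 had enough counts to be tested and 0 were differentially expressed (edgeR adjusted p under 0.05), where 0.407% of the 13036 tested genes were. DESeq2 and limma-voom also called 0 of them. With no filter edgeR called *Pdk4*, where 274 of 18957 genes were called. With a term for Y-linked counts it also called *Pdk4*, where 112 of 13036 genes were called. At an unadjusted p under 0.05 by edgeR, *Pdk4*, *Pfkfb3* and *Pfkm* were higher in the *Pdgfra-Cre:LmnaF/F* libraries, which is 3 of 31 beside a background of 6.24% of the tested genes, and 0 of 31 were lower beside a background of 5.65%. In either direction, the unadjusted count was 5 with DESeq2, beside 10.4% of its genes, and 2 with limma-voom, beside 14.4%. The groups did not overlap for *Pfkm*, higher in all 4 *Pdgfra-Cre:LmnaF/F* libraries (background 4.06%), and for *Pfkp*, lower in all 4 (background 3.97%). The median log2 fold change of the 31 genes was -0.02, with 15 above and 16 below 0, beside 0.02 over the tested genes.

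**Figure D1:**
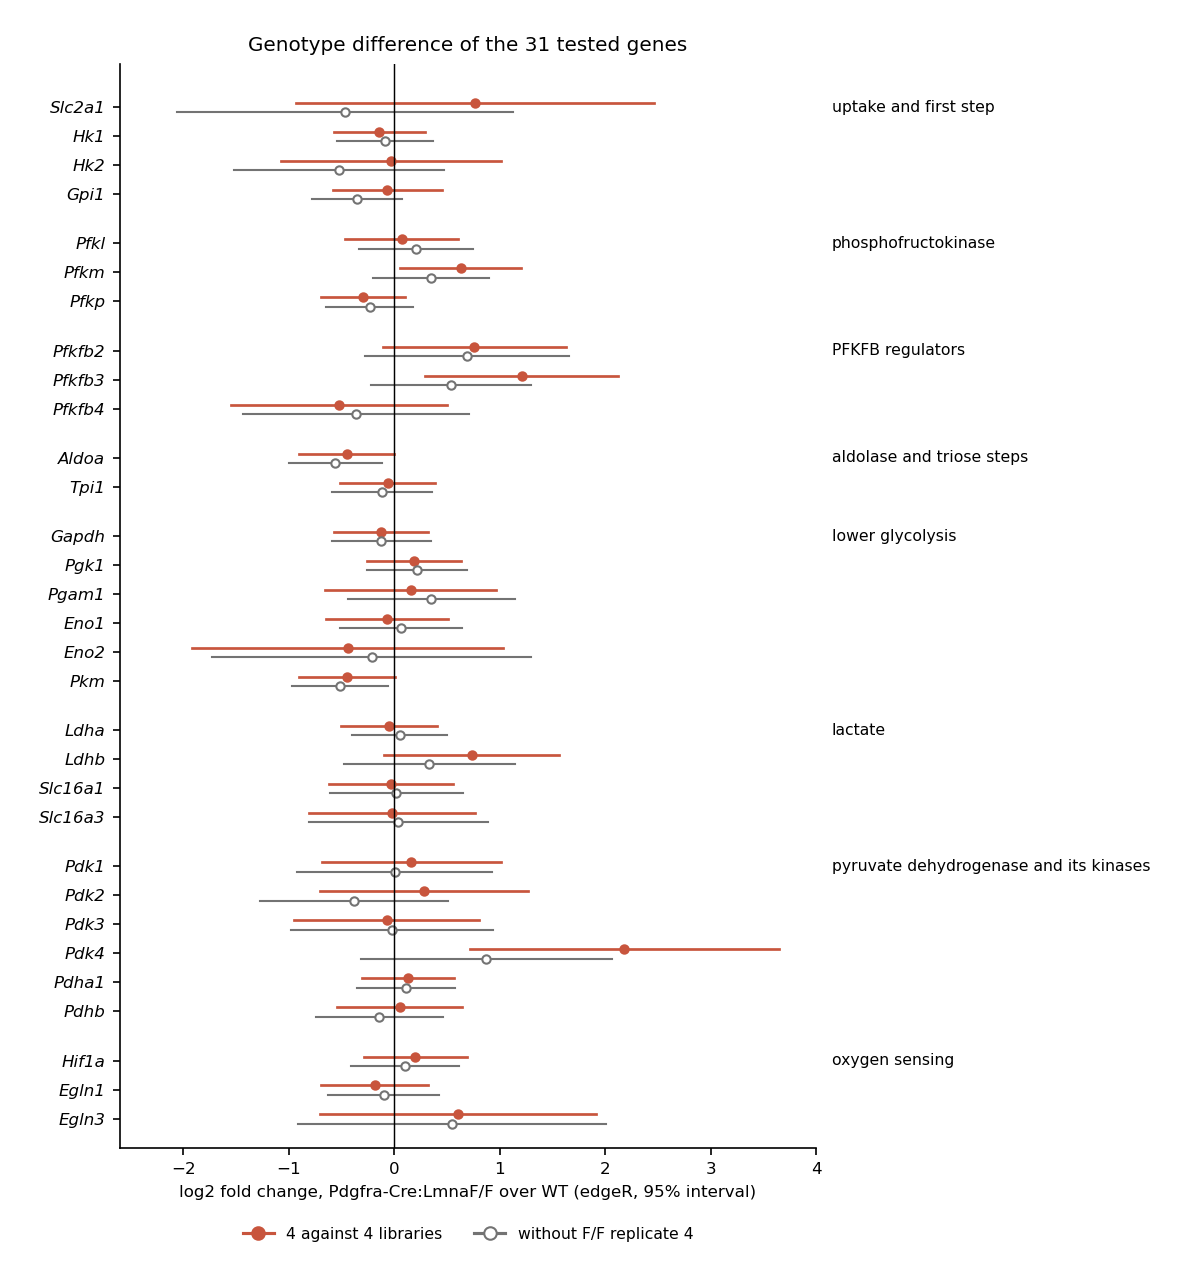
Log2 fold change of the 31 tested genes, *Pdgfra-Cre:LmnaF/F* over WT, by role in the pathway, with the 95% interval of the edgeR fit. Filled red points are 4 against 4 libraries and open grey points leave out *Pdgfra-Cre:LmnaF/F* replicate 4; *Pdk4*, *Pfkfb3* and *Pfkm* have intervals above 0 with 8 libraries, and none of the 3 does without that replicate.

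Among the genes of glucose uptake and the first steps, *Slc2a1* and *Hk2* showed wide spread within each genotype. *Slc2a1*, the glucose transporter GLUT1, had 2.24, 24.7, 19.8 and 9.01 CPM in the WT and 3.10, 5.63, 20.95 and 62.1 CPM in the *Pdgfra-Cre:LmnaF/F* libraries. The groups overlapped almost over the whole WT range, and the log2 fold change of 0.77 had a 95% interval of -0.93 to 2.46. Without *Pdgfra-Cre:LmnaF/F* replicate 4 it was -0.47 (SE 0.75). *Hk1* and *Hk2* encode hexokinases, which trap glucose in the cell as glucose 6-phosphate. *Hk1* lay between 68.4 and 93.2 CPM in the WT and between 64.7 and 85.5 CPM in the *Pdgfra-Cre:LmnaF/F* libraries, a log2 fold change of -0.14 (95% interval -0.57 to 0.29). *Hk2* ranged from 20.7 to 55.3 CPM in the WT and from 10.6 to 61.7 CPM in the *Pdgfra-Cre:LmnaF/F* libraries. Per length, *Hk1* made up 46.4% to 75.9% of the hexokinase RNA in the WT libraries and 42.7% to 84.3% in the *Pdgfra-Cre:LmnaF/F* libraries. These shares depend on the gene length used. With the longest transcript they were 61.4% to 85.3% in the WT and 57.9% to 90.8% in the *Pdgfra-Cre:LmnaF/F* libraries. *Gpi1*, which converts glucose 6-phosphate to fructose 6-phosphate, had 163 to 201 CPM in the WT and 171, 129, 118 and 263 CPM in the *Pdgfra-Cre:LmnaF/F* libraries, of which replicate 4 was the highest of the 8. Its log2 fold change was -0.06 (SE 0.24), and -0.35 (SE 0.20) without that replicate.

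Phosphofructokinase catalyses the committed step of glycolysis. Its isoenzyme genes *Pfkm* and *Pfkp* were those whose groups did not overlap, at 1 of 31 genes in each direction, which is no more than the background shares given above. *Pfkm*, the muscle-type subunit (chromosome 15 from 98092589 to 98132451), had 32.3, 30.7, 29.9 and 29.8 CPM in the WT and 35.7, 35.9, 45.7 and 72.8 CPM in the *Pdgfra-Cre:LmnaF/F* libraries. All 4 *Pdgfra-Cre:LmnaF/F* values were above all 4 WT values, and replicate 4 was the highest. On average *Pfkm* had 30.7 ± 1.17 CPM for WT (SD, n = 4) and 47.5 ± 17.5 CPM for *Pdgfra-Cre:LmnaF/F* (SD, n = 4). The log2 fold change was 0.63 (SE 0.27, edgeR adjusted p = 0.373), and without *Pdgfra-Cre:LmnaF/F* replicate 4 it was 0.35 (SE 0.26), with groups that still did not overlap. An unadjusted p under 0.05 was reached in 3 of the 8 fits with 1 library left out. *Pfkp*, the platelet-type subunit (chromosome 13 from 6579768 to 6648777), had 98.9, 98.6, 124 and 114 CPM in the WT and 89.5, 91.1, 98.0 and 76.3 CPM in the *Pdgfra-Cre:LmnaF/F* libraries. The highest *Pdgfra-Cre:LmnaF/F* value, in replicate 3, lay just under the lowest WT value, and with the normalization factors of DESeq2 (RLE) the groups overlapped. Its log2 fold change was -0.30 (SE 0.18, edgeR adjusted p = 0.584). *Pfkl*, the liver-type subunit, had 30.4 to 41.3 CPM in the WT and 26.4 to 42.9 CPM in the *Pdgfra-Cre:LmnaF/F* libraries.

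Read per kilobase of exon, the share of *Pfkm* in phosphofructokinase RNA was 42.1%, 40.4%, 39.4% and 40.4% in the WT and 46.3%, 45.2%, 49.9% and 69.3% in the *Pdgfra-Cre:LmnaF/F* libraries. The share of *Pfkp* was 32.1%, 32.4%, 40.6% and 38.6% in the WT and 28.9%, 28.6%, 26.7% and 18.1% in the *Pdgfra-Cre:LmnaF/F* libraries. The remaining part was *Pfkl*. These shares are computed from the CPM values above, and their separation adds nothing to the separation of those values. The shares depend on the gene length used: with the longest transcript, the mean WT share of *Pfkm* was 32.6% in place of 40.6%, with 31.7% to 33.8% in the WT and 36.6% to 61.4% in the *Pdgfra-Cre:LmnaF/F* libraries. The myocyte markers summed to 3234 CPM in *Pdgfra-Cre:LmnaF/F* replicate 4, the library with the highest *Pfkm* share, and their part in it was not tested.

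The PFKFB enzymes make and remove fructose 2,6-bisphosphate, the main activator of phosphofructokinase. *Pfkfb3* (chromosome 2 from 11471433 to 11554077), the isoenzyme with the strongest bias toward synthesis, had 24.0, 23.6, 19.5 and 22.6 CPM in the WT and 38.4, 15.4, 44.0 and 109 CPM in the *Pdgfra-Cre:LmnaF/F* libraries. Replicates 1, 3 and 4 of *Pdgfra-Cre:LmnaF/F* were above the 4 WT libraries and replicate 2 was below them. Mean *Pfkfb3* was 22.4 ± 2.05 CPM for WT (SD, n = 4) and 51.7 ± 40.1 CPM for *Pdgfra-Cre:LmnaF/F* (SD, n = 4). The log2 fold change was 1.21 (SE 0.43, edgeR adjusted p = 0.274), and 0.54 (SE 0.36) without replicate 4. The adjusted p lay between 0.0739 and 0.469 over the settings that kept all libraries, and was 0.641 without *Pdgfra-Cre:LmnaF/F* replicate 4. The dissociation genes, given above, had higher sums in all 4 *Pdgfra-Cre:LmnaF/F* libraries than in the WT. The sums of the *Pdgfra-Cre:LmnaF/F* libraries were 8849, 9823, 14024 and 9461 CPM. Their part in the *Pfkfb3* values was not tested. *Pfkfb2*, the heart-type isoenzyme, had 9.91 to 15.8 CPM in the WT, and 8.28, 26.9, 27.2 and 24.9 CPM in the *Pdgfra-Cre:LmnaF/F* libraries. Replicate 1 of *Pdgfra-Cre:LmnaF/F* was the lowest of the 8 libraries and the other 3 were above the WT (log2 fold change 0.76, SE 0.41, edgeR adjusted p = 0.498). *Pfkfb4* averaged 11.9 ± 3.20 CPM for WT (SD, n = 4) and 8.20 ± 3.07 CPM for *Pdgfra-Cre:LmnaF/F* (SD, n = 4), a log2 fold change of -0.52 (SE 0.48).

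**Figure D2:**
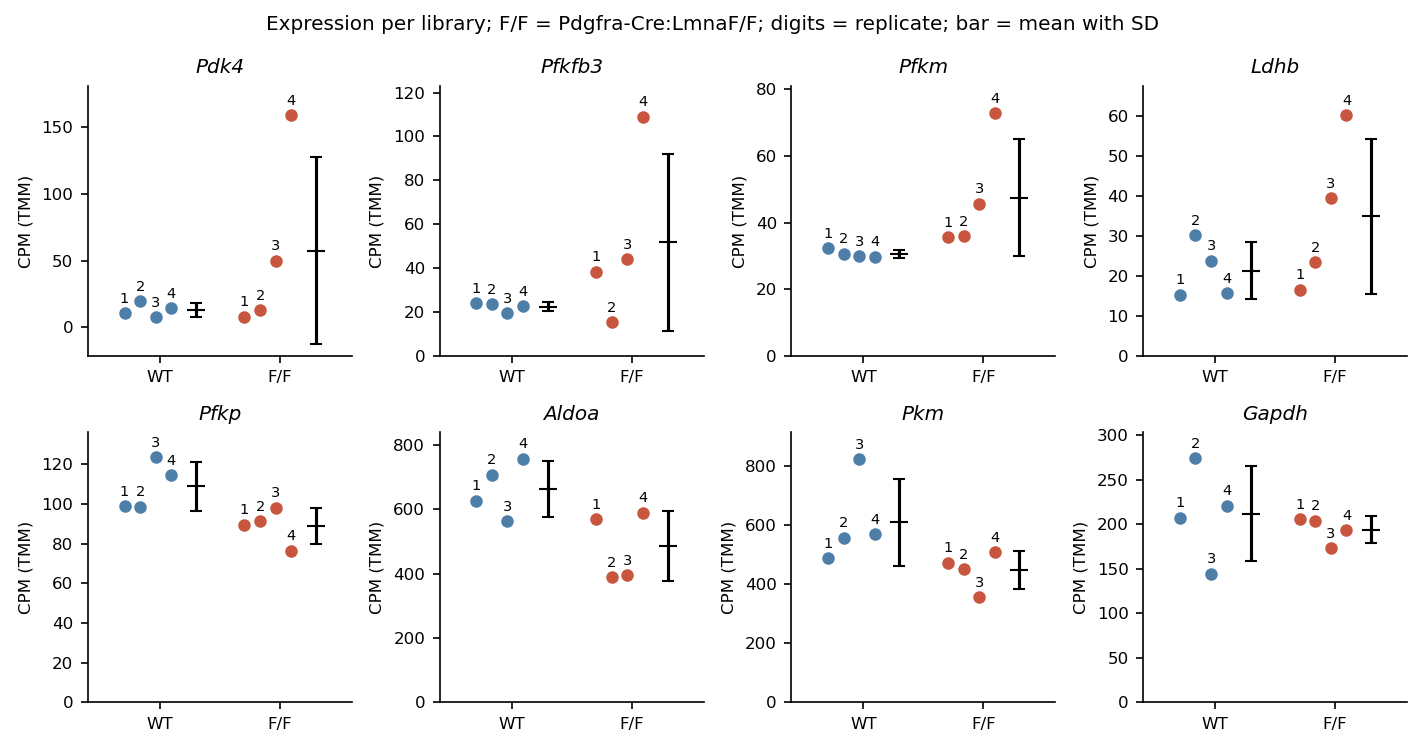
CPM per library of 8 genes on linear axes, with blue points for WT, red points for *Pdgfra-Cre:LmnaF/F* (F/F), digits for the replicate and bars for the mean with SD of 4 libraries. *Pdgfra-Cre:LmnaF/F* replicate 4 is the highest library for *Pdk4*, *Pfkfb3*, *Pfkm* and *Ldhb*, while *Aldoa* and *Pkm* are on average lower in *Pdgfra-Cre:LmnaF/F* and *Gapdh* overlaps.

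*Aldoa* and *Pkm*, the genes with the highest levels among these enzymes, had lower means in the *Pdgfra-Cre:LmnaF/F* libraries, and neither was called. *Aldoa*, the main aldolase here, had 627, 708, 564 and 758 CPM in the WT and 571, 389, 396 and 591 CPM in the *Pdgfra-Cre:LmnaF/F* libraries. WT replicate 3 lay below *Pdgfra-Cre:LmnaF/F* replicates 1 and 4, and the other WT libraries lay above all *Pdgfra-Cre:LmnaF/F* libraries. The log2 fold change was -0.45 (SE 0.21, edgeR adjusted p = 0.421). *Pkm*, which encodes pyruvate kinase, the enzyme of the last step to pyruvate, had 487, 557, 821 and 569 CPM in the WT and 471, 451, 356 and 506 CPM in the *Pdgfra-Cre:LmnaF/F* libraries. Replicate 4 of *Pdgfra-Cre:LmnaF/F* exceeded WT replicate 1, and the other 3 were below all WT libraries. The log2 fold change was -0.45 (SE 0.21, edgeR adjusted p = 0.433). Without *Pdgfra-Cre:LmnaF/F* replicate 4, *Aldoa* was at -0.56 (SE 0.20, adjusted p = 0.310) and *Pkm* at -0.51 (SE 0.21, adjusted p = 0.377), and these were the 2 of 31 genes with an unadjusted p under 0.05 in the lower direction, beside a background of 5.79%. Without WT replicate 3, which had the highest *Pkm*, the log2 fold change of *Pkm* was -0.27 (adjusted p = 0.665). In the higher direction the fit without *Pdgfra-Cre:LmnaF/F* replicate 4 had 0 of 31, beside 5.27%. The counts of the 13 genes from *Gpi1* to *Pkm* summed to 2010.0, 2314, 2242 and 2188 CPM in the WT and to 1923, 1761, 1559 and 2044 CPM in the *Pdgfra-Cre:LmnaF/F* libraries. In this sum, in which *Aldoa* and *Pkm* weigh most, replicate 4 of *Pdgfra-Cre:LmnaF/F* exceeded WT replicate 1 and the other 3 were below the WT.

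The other enzymes of these steps overlapped between the genotypes. *Gapdh* was the loading control of the RT-PCR of the study, which was reported for hearts and not for the sorted cells measured here. It had 207, 274, 144 and 221 CPM in the WT and 206, 204, 173 and 194 CPM in the *Pdgfra-Cre:LmnaF/F* libraries. The 4 *Pdgfra-Cre:LmnaF/F* values of *Gapdh* lay within the WT range. Its log2 fold change was -0.12 (95% interval -0.57 to 0.32, edgeR adjusted p = 0.881), which leaves a difference of up to 0.57 in the lower direction within the interval. *Tpi1* (triose-phosphate isomerase) had 116 to 177 CPM in the WT and 109 to 159 CPM in the *Pdgfra-Cre:LmnaF/F* libraries, a log2 fold change of -0.06 (SE 0.21). *Pgk1* (phosphoglycerate kinase, X-linked) had 57.5 to 89.96 CPM in the WT and 76.9 to 96.1 CPM in the *Pdgfra-Cre:LmnaF/F* libraries (0.19, SE 0.21). For *Pgam1* (phosphoglycerate mutase) the ranges were 13.1 to 54.3 CPM and 24.1 to 61.4 CPM (0.16, SE 0.38). *Eno1*, the common enolase, had 52.4 to 119 CPM in the WT and 55.8 to 98.1 CPM in the *Pdgfra-Cre:LmnaF/F* libraries. *Eno2*, the enolase known from neurons, ranged from 7.29 to 22.4 CPM in the WT and from 0.921 to 22.1 CPM in the *Pdgfra-Cre:LmnaF/F* libraries, with *Pdgfra-Cre:LmnaF/F* replicate 3 as the lowest (log2 fold change -0.44, SE 0.69). *Aldoc* had 0 to 3 counts per library, at or under the 3 counts taken as the detection floor, and was not tested.

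Levels of different genes were compared per kilobase of exon. In the WT, *Aldoa* had 228 ± 29.6 CPM per kb (SD, n = 4) and *Pkm* 122 ± 29.2 CPM per kb (SD, n = 4). *Ldha* with 54.7 ± 12.3, *Tpi1* with 51.9 ± 11.2 and *Gapdh* with 51.2 ± 12.9 CPM per kb (SD, n = 4) followed and did not differ beyond their spread. The lowest levels of tested genes were those of *Pfkfb4* with 2.43 ± 0.657, *Pdk1* with 2.27 ± 1.24 and *Pfkfb2* with 1.76 ± 0.380 CPM per kb (SD, n = 4), and these 3 did not differ beyond the SD of *Pdk1*.

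At the lactate branch, *Ldha* overlapped between the genotypes and *Ldhb* varied within *Pdgfra-Cre:LmnaF/F*. *Ldha* had 138 to 219 CPM in the WT and 138 to 207 CPM in the *Pdgfra-Cre:LmnaF/F* libraries (log2 fold change -0.05, 95% interval -0.50 to 0.41). *Ldhb*, the subunit that predominates in heart muscle and favours pyruvate, had 15.3, 30.2, 23.8 and 15.7 CPM in the WT and 16.6, 23.4, 39.4 and 60.2 CPM in the *Pdgfra-Cre:LmnaF/F* libraries. Replicates 3 and 4 of *Pdgfra-Cre:LmnaF/F* were above the WT, and replicates 1 and 2 lay within it (log2 fold change 0.74, SE 0.39, edgeR adjusted p = 0.494). Without replicate 4 the log2 fold change was 0.33 (SE 0.38). Per length, *Ldha* made up 76.9% to 82.3% of the lactate dehydrogenase RNA in the WT and 83.0%, 80.8%, 69.0% and 52.1% in the *Pdgfra-Cre:LmnaF/F* libraries. The lactate transporters *Slc16a1* (MCT1) and *Slc16a3* (MCT4) had log2 fold changes of -0.03 (SE 0.27) and -0.02 (SE 0.37). *Slc16a1* ranged from 22.5 to 35.2 CPM in the WT and from 22.3 to 37.3 CPM in the *Pdgfra-Cre:LmnaF/F* libraries. *Slc16a3* ranged from 11.96 to 34.8 CPM in the WT and from 17.5 to 30.3 CPM in the *Pdgfra-Cre:LmnaF/F* libraries, and was highest in WT replicate 3.

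**Figure D3:**
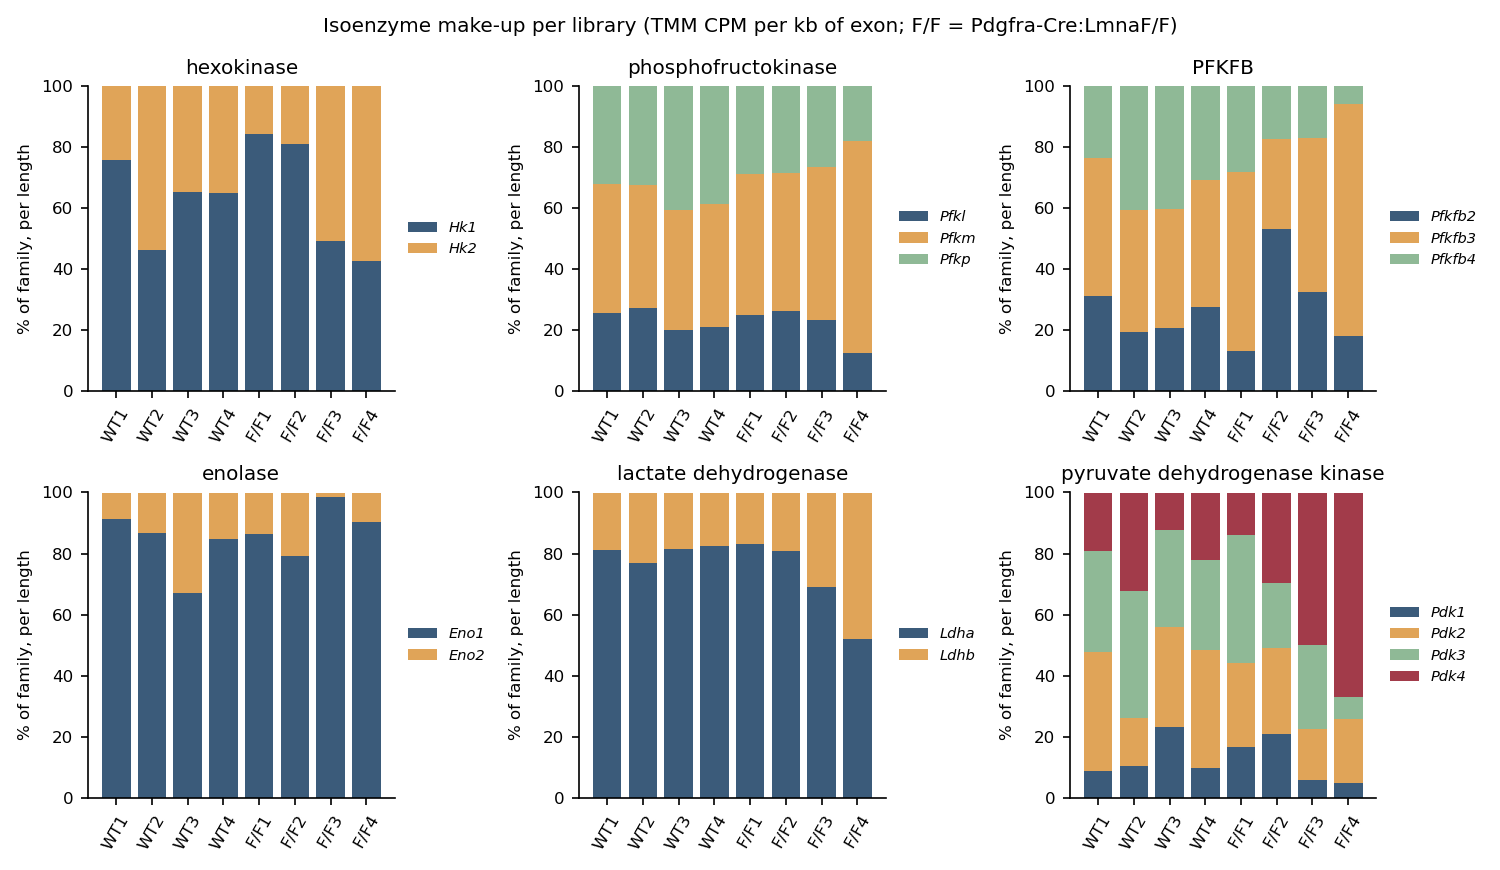
Make-up of 6 isoenzyme families in each library, as a percent of the family's TMM CPM per kb of exon, with F/F for *Pdgfra-Cre:LmnaF/F*. The share of *Pfkm* is 39.4% to 42.1% in the WT and 45.2% to 69.3% in the *Pdgfra-Cre:LmnaF/F* libraries, and the *Ldhb* and *Pdk4* shares exceed all WT shares in *Pdgfra-Cre:LmnaF/F* replicates 3 and 4 only.

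At the entry of pyruvate into mitochondria, *Pdk4* had the largest log2 fold change of the 31 genes. *Pdk4* (chromosome 6 from 5483351 to 5496309), the PDK isoenzyme known to rise when tissues switch from glucose to fatty acids, had 10.5, 19.6, 7.67 and 14.2 CPM in the WT and 7.96, 12.6, 49.8 and 159 CPM in the *Pdgfra-Cre:LmnaF/F* libraries. Replicates 1 and 2 of *Pdgfra-Cre:LmnaF/F* lay within the range of the WT, and replicates 3 and 4 lay above it. Mean *Pdk4* was 12.99 ± 5.17 CPM for WT (SD, n = 4) and 57.3 ± 70.2 CPM for *Pdgfra-Cre:LmnaF/F* (SD, n = 4), so the SD of the *Pdgfra-Cre:LmnaF/F* libraries exceeded their mean. The log2 fold change was 2.18 (SE 0.69, edgeR adjusted p = 0.219), and it was 0.88 (SE 0.56, adjusted p = 0.629) without *Pdgfra-Cre:LmnaF/F* replicate 4. *Pdk4* was past the threshold when no genes were filtered out (adjusted p = 0.00551) and when the presence of Y-linked counts was a term of the fit (adjusted p = 0.0437), in a range of 0.00551 to 0.541 over the settings that kept all libraries. The log2 fold change was 0.95 with limma-voom, which weights libraries by quality. Replicate 3, with 49.8 CPM of *Pdk4*, had a myocyte marker sum of 378 CPM, within the WT range. Replicate 4, with 159 CPM of *Pdk4*, had a sum of 3234 CPM. The part of myocyte RNA in the *Pdk4* values was not tested.

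The other kinases did not differ beyond the spread between libraries. *Pdk1*, a HIF1A target, had 10.7 to 31.96 CPM in the WT and 12.9 to 25.8 CPM in the *Pdgfra-Cre:LmnaF/F* libraries. *Pdk2* had 8.55 to 22.2 CPM in the WT and 14.1, 10.7, 14.9 and 44.3 CPM in the *Pdgfra-Cre:LmnaF/F* libraries, and its log2 fold change was 0.29 with replicate 4 and -0.38 without it. *Pdk3*, which is X-linked, had 12.99 to 18.6 CPM in the WT and 6.57 to 20.03 CPM in the *Pdgfra-Cre:LmnaF/F* libraries, a log2 fold change of -0.07 (SE 0.41). Per length, *Pdk4* made up 19.3%, 32.2%, 12.4% and 22.2% of PDK RNA in the WT and 14.1%, 29.7%, 50.0% and 67.0% in the *Pdgfra-Cre:LmnaF/F* libraries, and the first 2 *Pdgfra-Cre:LmnaF/F* shares lay within the WT range. The subunits of the dehydrogenase that the kinases act on, *Pdha1* (X-linked) and *Pdhb*, had log2 fold changes of 0.13 (95% interval -0.31 to 0.57) and 0.05 (95% interval -0.54 to 0.64). *Pdha1* lay between 74.97 and 116 CPM in the WT and between 89.2 and 123 CPM in the *Pdgfra-Cre:LmnaF/F* libraries. *Pdhb* lay between 28.2 and 57.9 CPM in the WT and between 32.7 and 61.7 CPM in the *Pdgfra-Cre:LmnaF/F* libraries.

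**Figure D4:**
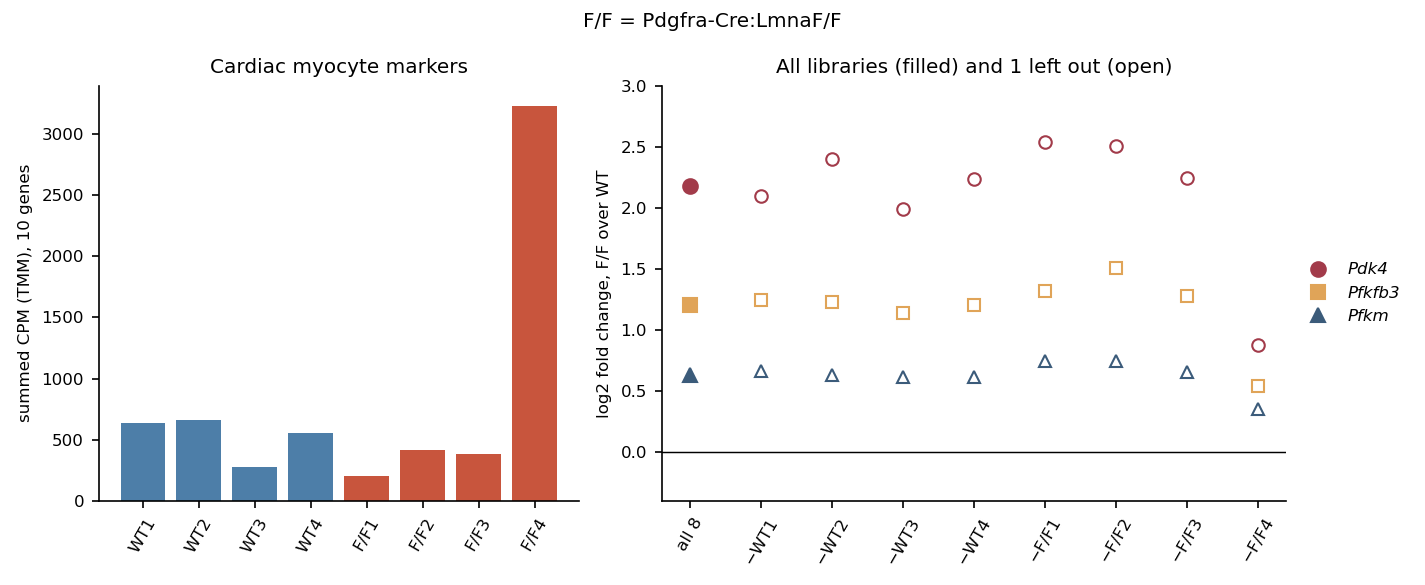
Left, summed CPM of 10 cardiac myocyte markers per library; right, log2 fold change (*Pdgfra-Cre:LmnaF/F*, F/F, over WT) of *Pdk4*, *Pfkfb3* and *Pfkm* with 8 libraries (filled) and with 1 library left out (open). The marker sum is 3234 CPM in *Pdgfra-Cre:LmnaF/F* replicate 4, and leaving out that library gives the lowest fold change of each of the 3 genes.

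The oxygen sensors and HIF1A itself were measured at RNA level, where the known control of HIF1A acts largely on the protein. *Hif1a* had 84.4, 65.4, 104 and 67.1 CPM in the WT and 77.1, 112, 70.3 and 110 CPM in the *Pdgfra-Cre:LmnaF/F* libraries, and the groups overlapped (log2 fold change 0.20, 95% interval -0.29 to 0.69). *Egln1*, the main oxygen sensor among the prolyl hydroxylases, averaged 52.8 ± 11.2 CPM for WT (SD, n = 4) and 46.2 ± 9.02 CPM for *Pdgfra-Cre:LmnaF/F* (SD, n = 4), a log2 fold change of -0.18 (SE 0.24). *Egln3*, a HIF-induced hydroxylase, averaged 7.70 ± 5.10 CPM and 12.1 ± 2.002 CPM (SD, n = 4 each), with 1 count in the shallow WT replicate 2 (log2 fold change 0.61, SE 0.61). Without that library the log2 fold change of *Egln3* was 0.25.

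Related genes outside the 32 were read from the same fit. Of 22 tested other genes of glycolysis and pyruvate handling, 0 were called by edgeR and 2 had an unadjusted p under 0.05, both higher, beside a background of 6.24%. *Mpc1*, a subunit of the mitochondrial pyruvate carrier, had 3.92, 6.04, 2.88 and 7.77 CPM in the WT and 12.2, 29.5, 16.9 and 19.3 CPM in the *Pdgfra-Cre:LmnaF/F* libraries, and the groups did not overlap. Its log2 fold change was 1.93 (SE 0.46, edgeR adjusted p = 0.112), it was 1.93 also without *Pdgfra-Cre:LmnaF/F* replicate 4, and it was called with DESeq2 (adjusted p = 0.0108) and with DESeq2 and 1 RUVr factor (0.00652). *Adpgk*, an ADP-dependent glucokinase, and *Dld*, a subunit of the pyruvate dehydrogenase complex, had log2 fold changes of 0.73 (SE 0.32, edgeR adjusted p = 0.387) and 0.53 (SE 0.29, edgeR adjusted p = 0.525). Of 8 pentose phosphate genes, 0 were called and 0 had an unadjusted p under 0.05 by edgeR. The lowest p values of that list belonged to *G6pdx* (-0.40, SE 0.23), *Pgd* (-0.50, SE 0.31) and *Taldo1* (-0.39, SE 0.26), given as log2 fold changes.

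Of 12 regulators of the HIF pathway, 0 were called and 0 had an unadjusted p under 0.05 by edgeR. The lowest p values there belonged to *Cul2* (0.39, SE 0.33), *Arnt2* (-1.24, SE 1.25) and *Cited2* (0.24, SE 0.28). Of 28 other known HIF targets, 26 were tested, and 1 was called, lower, beside a background of 0.238%. *P4ha2*, a collagen prolyl 4-hydroxylase, had 52.6, 103, 101 and 63.9 CPM in the WT and 41.2, 25.3, 24.8 and 15.9 CPM in the *Pdgfra-Cre:LmnaF/F* libraries, with all *Pdgfra-Cre:LmnaF/F* values below the WT. Its log2 fold change was -1.58 (SE 0.31, edgeR adjusted p = 0.0446). The adjusted p was 0.0525 without *Pdgfra-Cre:LmnaF/F* replicate 4 and 0.0596 with limma-voom. With the other libraries left out in turn it was 0.0493, 0.137, 0.0917 and 0.0750 (WT) and 0.0303, 0.110 and 0.161 (*Pdgfra-Cre:LmnaF/F* replicates 1 to 3), so the call held without WT replicate 1 or *Pdgfra-Cre:LmnaF/F* replicate 1 and was lost without any other library.

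*Vegfa*, the vascular growth factor, was likewise lower in all 4 *Pdgfra-Cre:LmnaF/F* libraries, with 131, 194, 91.7 and 123 CPM in the WT and 86.6, 56.8, 82.7 and 73.9 CPM in the *Pdgfra-Cre:LmnaF/F* libraries, but was not called (log2 fold change -0.84, SE 0.24, edgeR adjusted p = 0.166). It was called with no filter (adjusted p = 0.0492) and by DESeq2 fitted with 1 RUVr factor (0.00855), and the adjusted p was 0.336 with the Y-linked term. *Lox*, a collagen crosslinking enzyme, had 88.3, 154, 73.3 and 94.3 CPM in the WT and 115, 168, 373 and 826 CPM in the *Pdgfra-Cre:LmnaF/F* libraries, and WT replicate 2 exceeded *Pdgfra-Cre:LmnaF/F* replicate 1 (log2 fold change 1.86, SE 0.46, edgeR adjusted p = 0.125). Without *Pdgfra-Cre:LmnaF/F* replicate 4 the log2 fold change of *Lox* was 1.103 (adjusted p = 0.205). *Lox* was called with no filter (adjusted p = 0.000343), with the Y-linked term (0.0174) and without *Pdgfra-Cre:LmnaF/F* replicate 1 (0.0433), in a range of 0.000343 to 0.248 over the settings that kept all libraries. At an unadjusted p under 0.05 these 26 targets had 3 genes higher (*Lox*, *Kdm3a* and *Bnip3*, background 6.24%) and 3 lower (*P4ha2*, *Vegfa* and *P4ha1*, background 5.65%), and their median log2 fold change was 0.04. Without *Pdgfra-Cre:LmnaF/F* replicate 4 the counts were 1 higher and 3 lower, beside 5.27% and 5.79%.

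**Figure D5:**
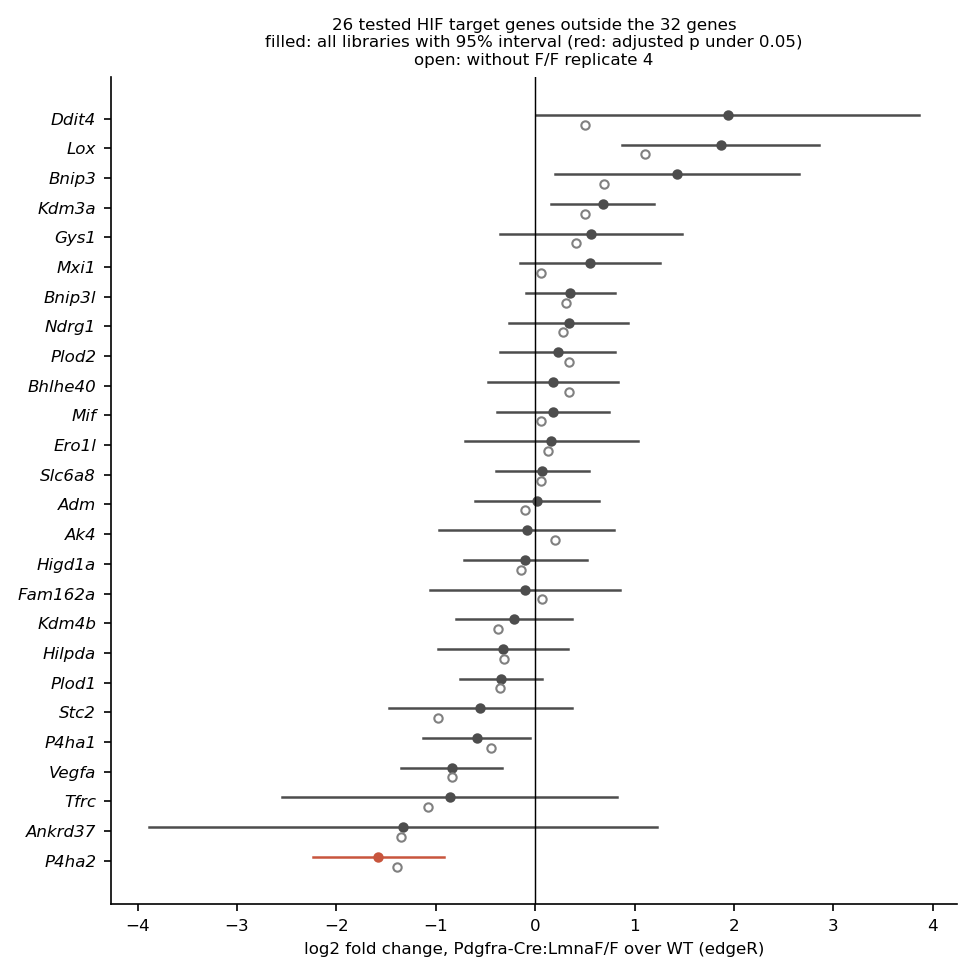
Log2 fold change (*Pdgfra-Cre:LmnaF/F* over WT) of the 26 tested HIF targets outside the 32 genes, with the 95% interval of the edgeR fit as a line; open points leave out *Pdgfra-Cre:LmnaF/F* replicate 4. The called gene, *P4ha2*, is in red, and 14 genes lie above and 12 below 0.

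Some counts may hold reads of other genes, since exons overlap on the same strand for *Pfkfb2* with *Gm29427* over 1262 bases, *Pkm* with *Gm49759* over 767, *Pfkm* with *Gm26513* over 341 and *Hif1a* with *Gm49321* over 148. How reads in overlapping genes or in processed pseudogenes of the abundant enzymes were counted is not given in the sources used here, so the levels of these genes are uncertain to that extent.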

How the data were processed

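RNA-Seq of 8 libraries was analysed. The authors sequenced ribosome-depleted, strand-specific libraries (RIN above 8, 150 bp paired-end reads), used HISAT2 for alignment to mm10 and featureCounts for counting over GENCODE annotation. Values deposited by the authors are raw counts of each gene, unscaled and without the RUV factors named in the methods, and the submitters' processing notes list FastQC and DESeq2. Genes with under 4 counts in all are not listed.

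Counts were fitted in R 4.3.3 with the quasi-likelihood test of edgeR 4.0.16 (TMM factors, filterByExpr, genotype as the only term, Benjamini-Hochberg adjustment over 13036 genes). Procedures were tested on simulated data. Alternatives were RLE and upper-quartile factors, no filter, at least 10 counts in every library, DESeq2 1.42.0, limma-voom 3.58.1 with library quality weights, 1 RUVr factor, a replicate block, a Y-linked term, and leaving out each library. Fold changes are unshrunken. Lengths are exon unions of GENCODE release 21 (GRCm38).

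Genes and lists were chosen with earlier results of these data known. Of the 32 genes, those with an unadjusted p under 0.05 or groups that do not overlap, and *Gapdh*, are given per library and the others by range or mean with SD. Of each related list the 3 genes with the lowest p are named. *Slc2a1*, *Aldoa*, *Pkm*, *Ldhb* and *Hif1a* are given per library, and *Kdm3a*, *Bnip3* and *P4ha1* are named, after their values were seen. Likewise, *Pfkfb2*, *Pdk2* and *Gpi1* are given per library for *Pdgfra-Cre:LmnaF/F* and by range for the WT. With 1 mouse per library, p-values measure the spread between these libraries. Depths cover counting error only.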

Additional observations from a re-analysis of the deposited data

Results flagged for a closer look

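Within a group of 4 libraries, the highest or lowest value was set against its nearest neighbour with Dixon's criterion, over 84 groups, of which chance flags about 1 in 20. It flagged 4 of 64 groups of the 32 genes. *Pdk1* was highest in WT replicate 3 with 31.96 CPM, against 14.1 CPM in the next library. *Pdk2* was highest in *Pdgfra-Cre:LmnaF/F* replicate 4 with 44.3 CPM, against 14.9 CPM. *Pfkfb2* was lowest in *Pdgfra-Cre:LmnaF/F* replicate 1 with 8.28 CPM, against 24.9 CPM, and *Slc16a3* was highest in *Pdgfra-Cre:LmnaF/F* replicate 3 with 30.3 CPM, against 18.2 CPM.

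Summed markers of other cells were flagged in the *Pdgfra-Cre:LmnaF/F* libraries. The cardiac myocyte markers reached 3234 CPM and the leukocyte markers 424 CPM in replicate 4, which was also the highest of the 8 libraries for 9 of the 32 genes and the lowest for 5. The erythroid markers reached 666 CPM in replicate 1, against 45.0 CPM in the next *Pdgfra-Cre:LmnaF/F* library and up to 365 CPM in the WT. The adipocyte markers, of which 4 were listed in the files and 1 was tested, reached 11.2 CPM in replicate 2. *Cidec* and *Cfd* among them were at 0 in at least 4 libraries.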

How the results depend on the processing

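Over all genes, 53 were called, and 274 with no filter, 309 with DESeq2, 126 with limma-voom, 472 with DESeq2 and 1 RUVr factor, 112 with the Y-linked term and 13 to 76 with 1 library left out (13 without WT replicate 4, 24 without WT replicate 1 or 2, 26 and 17 without *Pdgfra-Cre:LmnaF/F* replicates 2 and 3). Of these calls 22 were higher and 31 lower by edgeR, 43 and 36 with 1 RUVr factor, 281 and 191 with DESeq2 and 1 RUVr factor, and 64 and 48 with the Y-linked term. Of the 32 genes 1 was called, *Pdk4*, with no filter and with the Y-linked term, and 0 in the other settings. An unadjusted p under 0.05 was reached by 5 of them with no filter, DESeq2, 1 RUVr factor, both together and the Y-linked term, by 1 with the replicate block, beside 10.2% to 13.9% of all genes in these fits, and by 2 to 6 with 1 library left out, beside 8.88% to 13.1% (2 without WT replicate 4 or *Pdgfra-Cre:LmnaF/F* replicate 4, 6 without *Pdgfra-Cre:LmnaF/F* replicate 1). With 1 library left out, groups did not overlap for 1 to 2 genes in the higher direction (2 without *Pdgfra-Cre:LmnaF/F* replicate 1, 2 or 3) and 1 to 3 in the lower (3 without WT replicate 3, 2 without WT replicate 1 or *Pdgfra-Cre:LmnaF/F* replicate 4), beside 5.24% to 6.66% and 5% to 6.93% of all genes, and with RLE factors for 0 in the lower. The median was 0.0660 with the Y-linked term. The replicate numbers did not pair the libraries (correlations of deviations between -0.030 and 0.040), and the replicate block gave 36 calls over all genes and an adjusted p of 0.0742 for *P4ha2*.

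Of 556 refitted fold changes of the 31 genes, 45 reversed, in 15 genes, and 16 genes never reversed. With the Y-linked term these were *Hk2* (0.29), *Gpi1* (0.12), *Pfkl* (-0.0322) and *Gapdh* (0.0763). With limma-voom they were *Pgam1* (-0.000864), *Ldha* (0.0336), *Pdk2* (-0.10), *Slc16a1* (0.0286) and *Slc16a3* (0.16). *Slc16a3* also reversed with 1 RUVr factor (0.0856), with DESeq2 and 1 RUVr factor (0.0857) and with the replicate block (0.0432). With 1 library left out, the ranges that crossed 0 were -0.47 to 1.16 (*Slc2a1*), -0.52 to 0.27 (*Hk2*), -0.35 to 0.0787 (*Gpi1*), -0.000172 to 0.21 (*Pfkl*), -0.15 to 0.0573 (*Tpi1*), -0.27 to 0.0185 (*Gapdh*), -0.14 to 0.36 (*Pgam1*), -0.24 to 0.15 (*Eno1*), -0.15 to 0.0563 (*Ldha*), -0.0228 to 0.62 (*Pdk1*), -0.38 to 0.50 (*Pdk2*), -0.28 to 0.16 (*Pdk3*), -0.16 to 0.0783 (*Slc16a1*), -0.25 to 0.32 (*Slc16a3*) and -0.14 to 0.23 (*Pdhb*). The cause was not tested. Without a change of sign, 1 library moved the value of *Hk1* (-0.22 to -0.07), *Pfkm* (0.35 to 0.74), *Ldhb* (0.33 to 0.96), *Pdk4* (0.88 to 2.54), *Pfkfb3* (0.54 to 1.51), *Pkm* (-0.54 to -0.27), *Eno2* (-1.12 to -0.06), *Pgk1* (0.09 to 0.30), *Hif1a* (0.09 to 0.34), *Egln1* (-0.33 to -0.05), *Egln3* (0.25 to 0.84) and *Pdha1* (0.02 to 0.25) by over 1.5 times. Mean WT shares with the longest transcript were 29.1% for *Pfkl*, 32.6% for *Pfkm* and 86.1% for *Ldha*.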
